A study of Homo sapiens with 6 samples.

Results

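SNARE proteins are the membrane fusion machinery of the cell, and the genes described here are 44 that encode SNAREs of the endosomes and lysosomes, the plasma membrane, and the endoplasmic reticulum (ER) and Golgi, together with their regulators. They were chosen by gene symbol, and all 44 were among the 25365 rows of the deposited expression table. Of the 44, 14 were placed with endosomes and lysosomes, 11 with the plasma membrane, 11 with the ER and Golgi and 8 among the regulators, each by the main site given for it in textbooks. The cells were MDA-MB-231, an established human line from a triple-negative breast tumour, taken for RNA-seq 48 h after siRNA was given at 20 nM. The 3 si-Control libraries came from cells given the negative control siRNA Ambion AM4611, and the 3 si-NRDE2-2 libraries from cells given Ambion s30064, an siRNA against NRDE2, the nuclear partner of the helicase MTREX. All 6 libraries come from the same line, and only 1 NRDE2 siRNA was used, so its other targets cannot be told apart from loss of NRDE2. The labels do not say that replicates were separate cultures, so each p-value measures the spread among these libraries alone, and that spread may be technical.

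A SNARE on a vesicle and SNAREs on the target membrane zip together into a bundle of helices and so pull the membranes into contact. R-SNAREs, mostly VAMP proteins, contribute a helix with a central arginine, and Qa, Qb and Qc SNAREs contribute helices with glutamines. Syntaxins are the Qa SNAREs, with a few Qc members, while SNAP proteins carry a Qb and a Qc helix in the same chain. After fusion the ATPase NSF and its adaptors, the SNAP-type NAP proteins, take the bundle apart. Sec1/Munc18 proteins such as STXBP2 and STXBP3 guide assembly, and SYTL proteins dock secretory vesicles that carry RAB27.

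Values are FPKM, fragment counts divided by transcript length and by the depth of the library, as the authors deposited them. Since FPKM are per length, levels of different genes can be set side by side. Depth, estimated from the steps between low values, ran from 42300000 to 57400000 fragments per library. NRDE2 was at 4.39, 4.45 and 3.801 FPKM in the si-Control libraries and at 0.230, 0.234 and 0.229 FPKM in the si-NRDE2-2 libraries, lower in each library labelled as knockdown (log2 fold change -3.70 ± 0.10 SE, or -2.08 with a pseudocount of 1). The line's mesenchymal markers were high (VIM 1113 to 1260 FPKM, CD44, CAV1, MSN and AXL at 149 FPKM or more, EGFR at 31.8 to 38.8 FPKM), and ESR1 and PGR did not exceed 0.00441 FPKM. ERBB2 was at 10.3 to 12.9 FPKM. Of the luminal epithelial markers, KRT8 and KRT18 were high too. KRT8 was at 296 to 323 FPKM, and KRT18 went from 261 to 285 FPKM in si-Control to 306 to 320 FPKM in si-NRDE2-2. GATA3 was at 1.96 to 2.36 FPKM, and FOXA1 did not exceed 0.0455 FPKM. Of the immune and endothelial markers, PTPRC, CD3E and CDH5 did not exceed 0.0618 FPKM, PECAM1 went from 0.525 to 0.688 FPKM in si-Control to 0.958 to 1.18 FPKM in si-NRDE2-2, and CD14 from 1.29 to 1.71 FPKM in si-Control to 2.24 to 2.38 FPKM in si-NRDE2-2; their part in the results below was not tested.

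Of the tested SNARE genes and regulators, 3 had far larger changes than the others. VAMP7, an R-SNARE of late endosomes and lysosomes, rose to 3.01 times control. STX12, a Qa-SNARE of early and recycling endosomes, rose to 2.47 times control, and the RAB27-binding regulator SYTL1 fell to 0.490 times control. Each other tested member stayed between 0.746 and 1.28 times its control level. These ratios are of bulk RNA, in which more RNA per cell and more cells with the RNA cannot be told apart.

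Differences were tested with limma on log2(FPKM + 0.1), a scale that understates the change of low genes, and a gene was called at an adjusted p under 0.05 (Benjamini-Hochberg). Of the 44 members, 41 reached at least 1 FPKM in at least 3 libraries and were tested, and 10 of them rose and 4 fell. The 14 calls are 34.1% of the 41, while 44% of all 11791 tested genes were called, 20.9% as higher and 23.0% as lower. The median log2 fold change of the members was -0.0040 and that of all tested genes was -0.02, and the median absolute change was 0.12 for the members and 0.14 for all genes. For 22 of the 41 members every library of one group was above every library of the other, and the share over all genes was 53.5%. A called change of at least 0.5 on the log2 scale in either direction was found for 3 members (VAMP7, STX12 and SYTL1), as for 7.23% of all tested genes. A called change of at least 1 on the log2 scale was found upward for 2 members, as for 0.577% of all tested genes, and downward for 1 member, as for 0.102% of all. Of the 11791 genes, VAMP7 had the 11th and STX12 the 32nd largest rise, and SYTL1 the 12th largest fall.

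**Figure D1:**
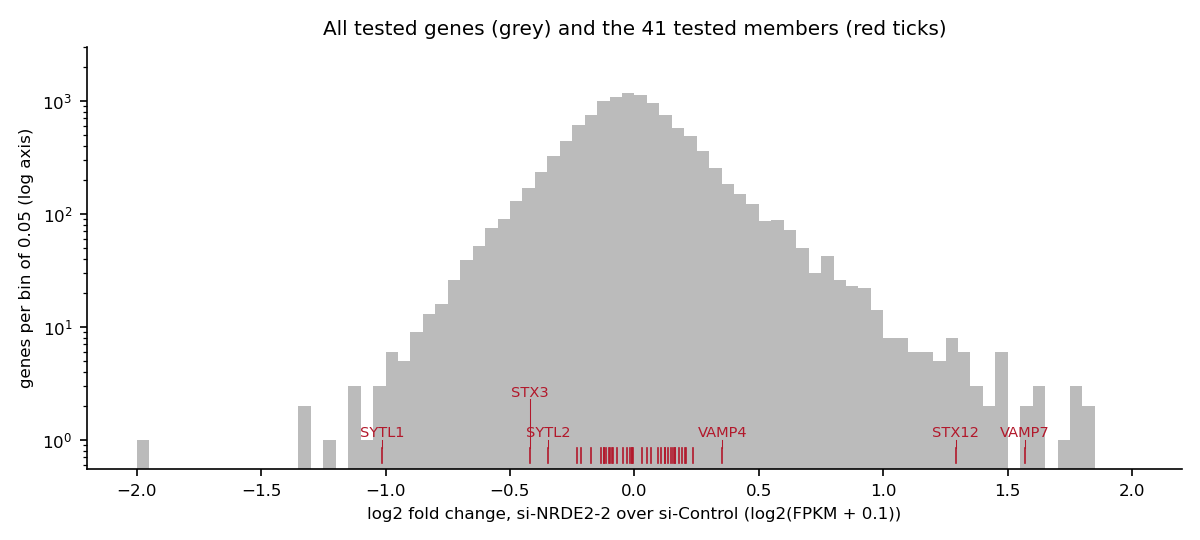
Histogram of the log2 fold change (si-NRDE2-2 over si-Control, on log2(FPKM + 0.1); x axis) of all 11791 tested genes, with the number of genes per bin of 0.05 on a log y axis; red ticks at the foot are the 41 tested members, and genes beyond the x axis are not drawn. VAMP7 (1.57), STX12 (1.29) and SYTL1 (-1.01) lie in the tails, and the other ticks lie between -0.42 and 0.35.

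With GC content and length trends removed from each library, 16 members rose and 7 fell, and 27.4% and 26.4% of all tested genes were called as higher and lower. Without si-NRDE2-2 replicate 2, 6 members rose and 4 fell, with 16.3% and 17.6% of all genes called in those directions.

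Endosomal and lysosomal SNAREs held the largest rises. Of 14 members, all tested, 5 rose (VAMP7, STX12, VAMP4, VAMP8 and VAMP3) and 0 fell, with a median log2 fold change of 0.14; of all tested genes 20.9% rose and 23.0% fell. VAMP7 has a folded longin domain before its SNARE motif and works in fusion of late endosomes with lysosomes and of lysosomes with the plasma membrane. In invasive breast cancer cells it is known for bringing the matrix protease MMP14 to the cell surface. Its level was 4.96, 5.21 and 5.01 FPKM in the control libraries and 14.4, 15.3 and 16.1 FPKM after knockdown, in the order of the replicate numbers, which all values below follow. Every si-NRDE2-2 library was above every si-Control library, and the gap was many times the spread within either group. The mean went from 5.06 ± 0.130 to 15.2 ± 0.854 FPKM (SD, n = 3 each), a log2 fold change of 1.57 ± 0.06 (SE, adjusted p = 1.25e-08), and this log2 fold change ran from 1.42 to 1.61 over the alternatives of the fit. VAMP7 lies in a region shared by the X and Y chromosomes, so its reads can map to a copy on each, and the sources used here do not say how the authors handled this.

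STX12, also called syntaxin 13, acts in recycling of receptors from early endosomes to the cell surface. It measured 4.97, 5.11 and 5.16 FPKM in the si-Control libraries and 12.3, 12.9 and 12.5 FPKM in the si-NRDE2-2 libraries. These groups were also far apart, with little spread in either. The log2 fold change was 1.29 ± 0.05 (adjusted p = 2.39e-08), and it ran from 1.16 to 1.31 over the alternatives.

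VAMP4, the R-SNARE of traffic between endosomes and the trans-Golgi network, measured 6.996, 6.42 and 6.88 FPKM in si-Control and 7.96, 8.88 and 9.22 FPKM in si-NRDE2-2. The groups did not overlap, but they lay much closer than those of VAMP7 (log2 fold change 0.35 ± 0.07, adjusted p = 0.00133).

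VAMP8, which serves late endosomes, the fusion of autophagosomes with lysosomes and regulated secretion, was the most abundant of all 44 genes. It measured 181, 186 and 217 FPKM in si-Control and 223, 218 and 219 FPKM in si-NRDE2-2. Replicate 3 of si-Control stood just under the lowest si-NRDE2-2 library. Its call (0.18 ± 0.07, adjusted p = 0.0471) was lost in 9 of 17 alternatives, with adjusted p-values from 2.89e-04 to 0.170. Among these 9 were the fits without replicate 1 or 2 of si-Control and without any one of the si-NRDE2-2 libraries.

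VAMP3, the R-SNARE of recycling endosomes, was the next most abundant member, at 57.9, 57.2 and 60.8 FPKM in si-Control and 62.5, 66.6 and 65.7 FPKM in si-NRDE2-2. Its groups did not overlap (0.15 ± 0.04, adjusted p = 0.0208), and the call was lost on leaving out replicate 1 or 2 of si-Control, or replicate 2 or 3 of si-NRDE2-2 (adjusted p up to 0.105).

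**Figure D2:**
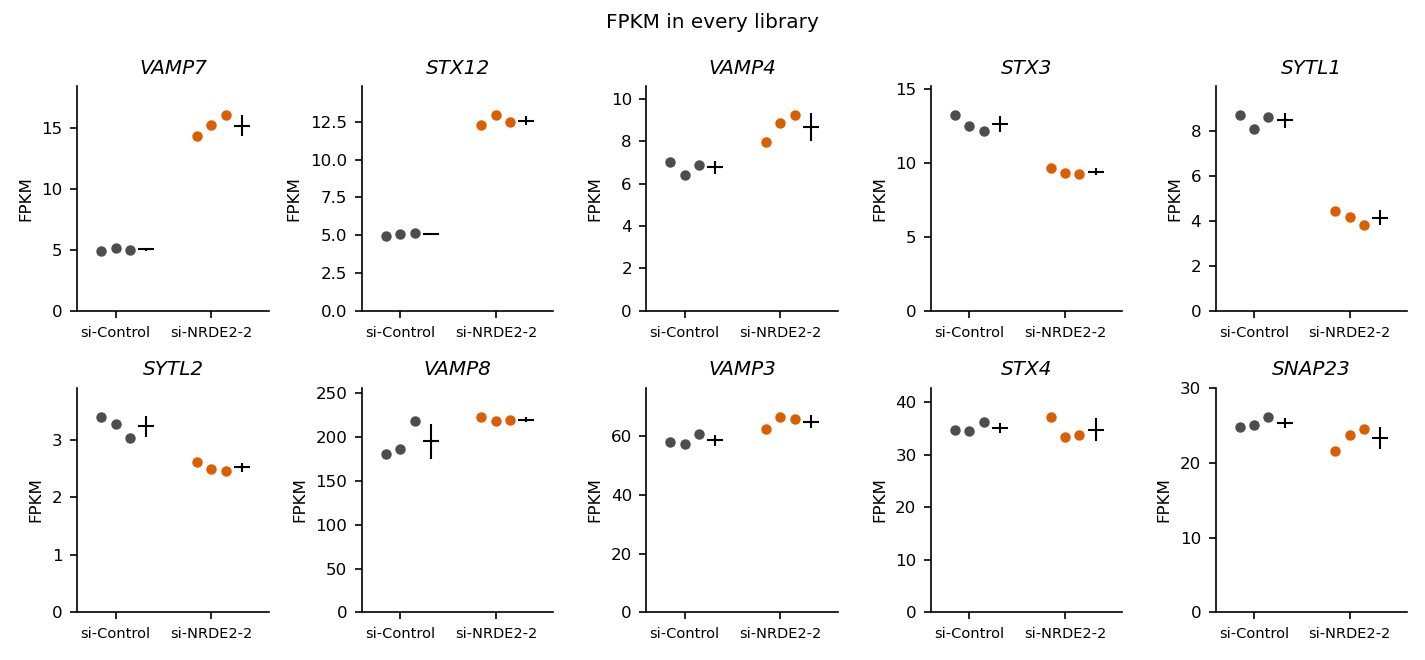
FPKM (y axes, from 0) of 10 members in the 3 si-Control (grey) and 3 si-NRDE2-2 (orange) libraries; bars show mean ± SD of each group. VAMP7 goes from about 5 FPKM in every si-Control library to 14.4 to 16.1 FPKM, STX12 to 12.3 to 12.9 FPKM and SYTL1 from 8.08 to 8.69 FPKM down to 3.799 to 4.46 FPKM, while STX4 overlaps between the groups.

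The other 9 endosomal and lysosomal SNAREs were not called. They included the Qa-SNARE of late endosomes STX7 (log2 fold change 0.03, 95% interval -0.11 to 0.17) and its partners STX8 (-0.01, interval -0.12 to 0.10) and VTI1B (0.09, interval -0.01 to 0.20). The autophagosomal SNAREs STX17 and SNAP29 stood at 0.16 and 0.11, and the groups of SNAP29 did not overlap (7.04 to 7.10 FPKM in si-Control, 7.54 to 7.71 FPKM in si-NRDE2-2). Among the SNAREs of the trans-Golgi network, VTI1A was at 0.19, STX6 at 0.12, STX16 at -0.0040 and STX10 at -0.12. STX10 was the third most abundant member, at 50.3, 49.6 and 55.5 FPKM in si-Control and 51.2, 45.2 and 47.1 FPKM in si-NRDE2-2, groups that overlapped. By GC and length trend removal, STX6, STX17, SNAP29 and VTI1A were called as well (adjusted p of 0.0383, 0.0424, 0.0291 and 0.0271). In that setting 9 of this class rose, and 27.4% of all tested genes were called as higher. Without si-NRDE2-2 replicate 2, 3 of this class rose, and 16.3% of all tested genes were called as higher.

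The make-up of the VAMP transcripts and of the endosomal Qa-SNARE transcripts shifted with VAMP7 and STX12. VAMP7 was 1.83, 1.89 and 1.61% of the summed FPKM of the 7 VAMP genes in si-Control and 4.37, 4.66 and 4.91% in si-NRDE2-2. VAMP8 remained the bulk of that sum, at 66.8 to 69.9% in si-Control and 66.5 to 67.7% in si-NRDE2-2. There were 38.5 ± 4.19 VAMP8 transcripts for each VAMP7 transcript in si-Control by FPKM and 14.5 ± 0.967 in si-NRDE2-2 (mean ± SD, n = 3). STX12 went from 9.46, 10.5 and 10.6% of the summed FPKM of the 4 endosomal Qa genes (STX7, STX12, STX16 and STX17) to 21.4, 22.1 and 20.9%. STX7 exceeded STX12 in all 6 libraries, by a ratio of 2.58 to 2.999 in si-Control and 1.103 to 1.24 in si-NRDE2-2. So VAMP7 stayed a minor part of the VAMP sum, and STX12 came close to STX7. These 2 sums differ in scope, since the 7 VAMP genes include those of the plasma membrane and the 4 Qa genes are endosomal only. By level VAMP7 and STX12 were alike, with means of 5.06 and 5.08 FPKM in si-Control and 15.2 and 12.6 FPKM in si-NRDE2-2.

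**Figure D3:**
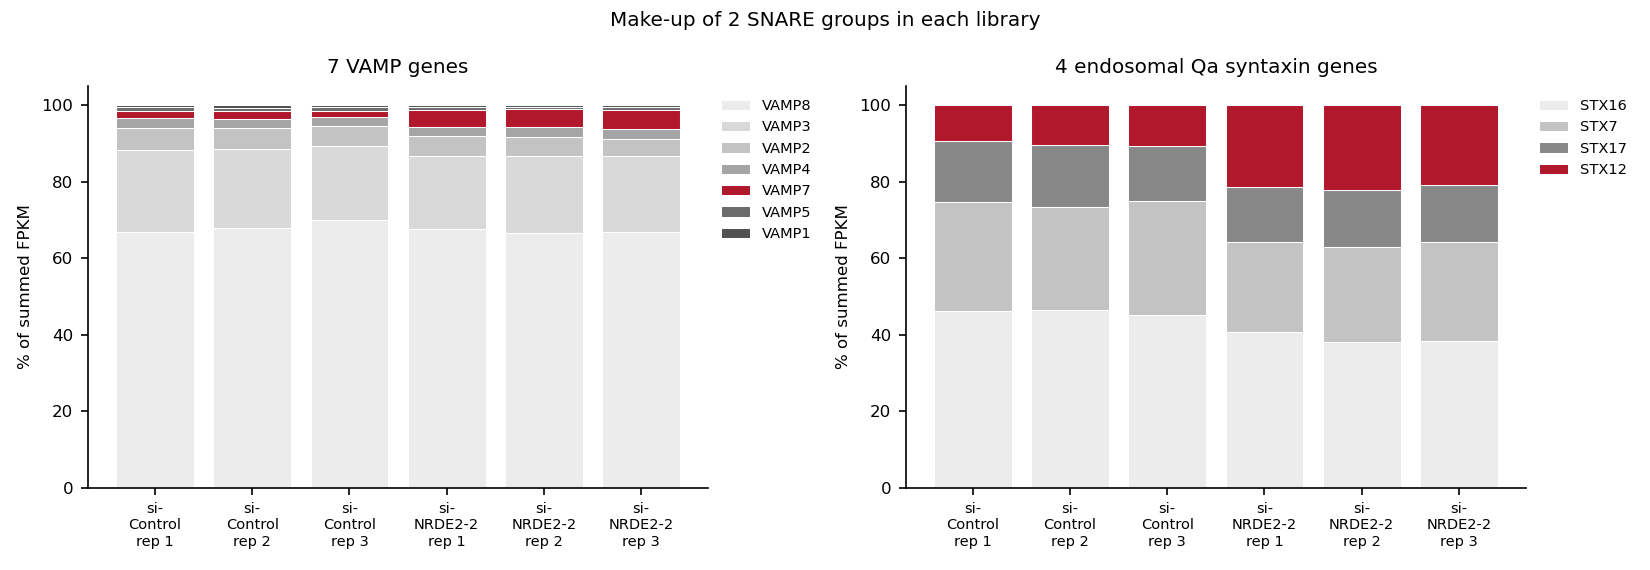
Share (%, y axis) of each gene in the summed FPKM of 7 VAMP genes (left) and of 4 endosomal Qa syntaxin genes (right), 1 bar per library. The red share is VAMP7 on the left, 1.61 to 1.89% in si-Control and 4.37 to 4.91% in si-NRDE2-2, and STX12 on the right, 9.46 to 10.6% and 20.9 to 22.1%.

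Each of the 4 members with the largest rises, VAMP7, STX12, VAMP4 and STX18, has at least 1 of 3 short motifs in its annotated 3′ untranslated region (UTR). No single motif is present in all 4. GOSR2 (0.21) and STX1A (0.20), which rose nearly as much as STX18 (0.24), have 0 motifs. The first motif is GACGTA. The second motif is GACAGTA. The third, a variant of the second, is GACTGTA. These motifs were picked in an earlier scan of the same fold changes. Their presence in these members and the counts below are therefore descriptions and no independent support. They were searched on the transcript strand only, and none of the 3 contains another. Sites are shown as 30 bases, 5′ to 3′, with the motif in capitals, from GENCODE 29 transcripts on GRCh38, a newer build than hg19, which the submitters' processing notes name. They are shown so that the motif and its surroundings can be compared between these genes.
VAMP7 site 1: agtattcaagaGACAGTAttgctaacatct
VAMP7 site 2: gaaagagaataGACAGTAtgacatatagaa
VAMP7 site 3: taagaaaattgGACTGTAatcatatcgcta
STX12 site 1: tgacctatggaGACAGTAattatcaattta
VAMP4 site 1: acaagatctggGACAGTAataaaagattgc
STX18 site 1: ttcagacagacaGACGTAttccccaaaaag

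The VAMP7 sites lie at chrX:155942323-155942352, chrX:155943021-155943050 and chrX:155943089-155943118 (plus strand), with the motifs starting at bases 195, 893 and 961 of a 3′ UTR of 1630 bases. The STX12 site lies at chr1:27822483-27822512 (plus strand, motif at base 165 of 2123). The VAMP4 site lies at chr1:171704452-171704481 (minus strand, motif at base 36 of 4346) and the STX18 site at chr4:4419877-4419906 (minus strand, motif at base 140 of 1066). GACAGTA is present in VAMP7, STX12 and VAMP4, and also in STX7, which was not called, and SNAP25, which was not tested. VAMP7 has 3 motifs in all, a number reached or passed by 0.747% of the 10575 tested genes with a 3′ UTR.

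Of the 40 tested members with a 3′ UTR, 9 (22.5%) had a motif, and 17.3% of the 10575 genes had one. Of these 9, 4 rose and 0 fell. The other 5 were not called, and they were GOSR1 (-0.13, with GACTGTA present 2 times), NAPB (-0.12), STX7 (0.03, with GACAGTA), YKT6 (0.07) and SNAP29 (0.11). Among all tested genes, 39.5% of the 1833 with a motif rose and 12.3% fell, and 17.5% of the 8742 without a motif rose and 25.3% fell. Of the 31 members without a motif, 6 rose and 3 fell, with log2 fold changes from -1.01 to 0.21. A motif was therefore present in members with large, small and no called change.

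Most plasma membrane SNAREs were not called. Of 11 members, 9 were tested, 1 rose and 1 fell (20.9% and 23.0% over all tested genes), and the median log2 fold change was -0.10. STX3, the Qa-SNARE of apical membranes in epithelia, measured 13.2, 12.5 and 12.2 FPKM in si-Control and 9.69, 9.33 and 9.24 FPKM in si-NRDE2-2. All 3 si-NRDE2-2 libraries were lower, and the log2 fold change was -0.42 ± 0.05 (adjusted p = 7.63e-05). STX1A, best known as the syntaxin of nerve terminals, measured 24.7, 25.1 and 24.7 FPKM in si-Control and 30.8, 28.8 and 26.2 FPKM in si-NRDE2-2 (0.20 ± 0.06, adjusted p = 0.0131). The si-NRDE2-2 libraries were all higher but spread over more than 4 FPKM.

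STX4 and SNAP23, the widely used plasma membrane partners of VAMP7, were not called. STX4 measured 34.7, 34.5 and 36.2 FPKM in si-Control and 37.2, 33.3 and 33.8 FPKM in si-NRDE2-2, so the groups overlapped (log2 fold change -0.02, 95% interval -0.13 to 0.09). SNAP23 measured 24.8, 25.02 and 26.2 FPKM and 21.7, 23.7 and 24.6 FPKM (-0.12 ± 0.05, adjusted p = 0.0813). Its groups did not overlap, and it was called as lower on leaving out si-NRDE2-2 replicate 3 (adjusted p = 0.0439) and on removal of GC and length trends (adjusted p = 0.0228). For each VAMP7 transcript there were 5.01 ± 0.206 SNAP23 and 6.95 ± 0.302 STX4 transcripts in si-Control and 1.53 ± 0.0229 and 2.29 ± 0.261 in si-NRDE2-2, by FPKM.

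The other Qa-SNARE of the cell surface tested here, STX2, was at -0.10, and SNAP47, a SNAP protein without the usual membrane anchor, at -0.09. The R-SNAREs VAMP2 (-0.03), VAMP5 (-0.18) and VAMP1 (-0.21) were not called. VAMP1 and VAMP5 were low, at 1.246 to 1.78 FPKM and 2.13 to 3.43 FPKM, which is about 58.7 and 78.9 fragments in the shallowest library. STX11, a syntaxin of cytotoxic lymphocytes, and SNAP25, the SNAP of neurons, were not tested. STX11 measured 0.460 to 0.481 FPKM in si-Control and 0.312 to 0.409 FPKM in si-NRDE2-2, and SNAP25 measured 0.152 to 0.205 and 0.139 to 0.208 FPKM.

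**Figure D4:**
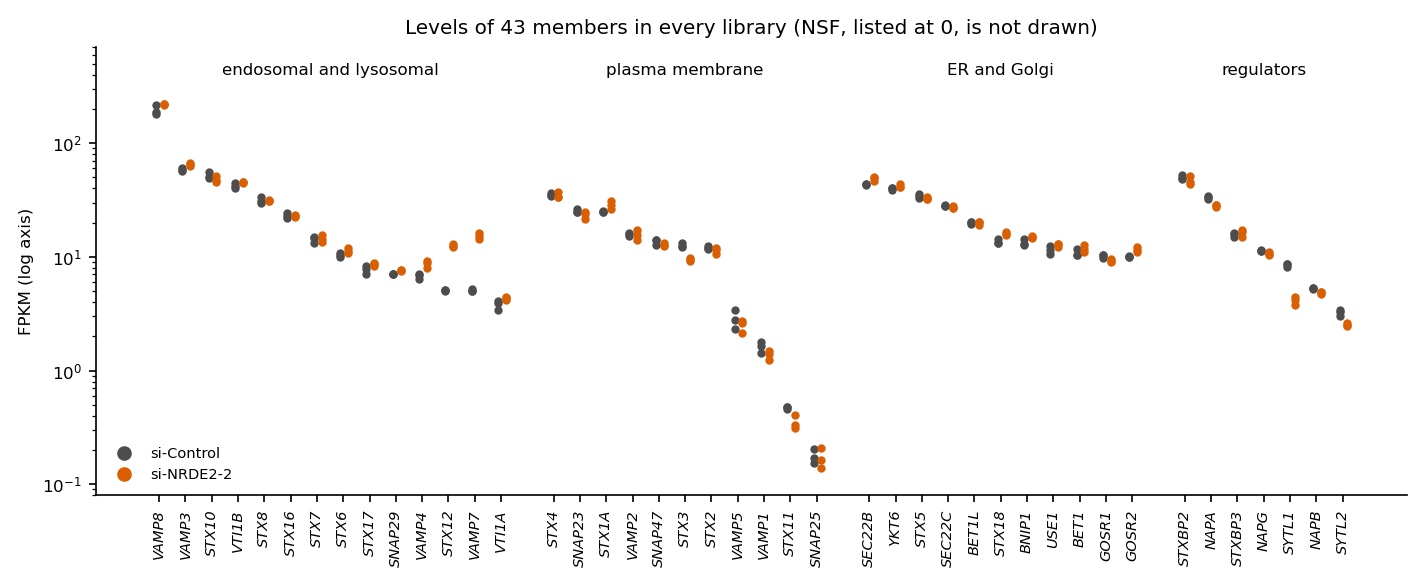
FPKM (log y axis) of 43 members in the 3 si-Control (grey) and 3 si-NRDE2-2 (orange) libraries, ordered within each class by the si-Control mean; NSF, listed at 0, is not drawn. Levels span from about 0.14 FPKM (SNAP25) to 223 FPKM (VAMP8), and VAMP7 and STX12 move from the low end of their class to its middle.

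The ER and Golgi SNAREs that were called rose by small amounts. Of 11 members, all tested, 4 rose and 0 fell, and the median was 0.12, with 20.9% and 23.0% of all tested genes called in those directions. STX18, the Qa-SNARE of traffic from the Golgi back to the ER, measured 13.1, 13.2 and 14.3 FPKM in si-Control and 16.7, 15.8 and 15.4 FPKM in si-NRDE2-2 (0.24 ± 0.05, adjusted p = 0.00396). GOSR2, a Qb-SNARE of ER to Golgi traffic, rose by 0.21 ± 0.05 (adjusted p = 0.00766). BNIP1, the Qb partner of STX18, rose by 0.16 ± 0.05 (adjusted p = 0.0278), and SEC22B, an R-SNARE between ER and Golgi, by 0.16 ± 0.04 (adjusted p = 0.00977). Each of these 4 was higher in all 3 si-NRDE2-2 libraries than in any si-Control library. Groups did not overlap, in either direction, for 6 of the 11 genes of this class and for 53.5% of all tested genes.

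Of these, STX18 kept its call under every alternative. GOSR2 lost it without si-NRDE2-2 replicate 2 (adjusted p = 0.0523) and SEC22B without si-NRDE2-2 replicate 3 (adjusted p = 0.0534). BNIP1 lost it with the replicate number as a block (adjusted p = 0.0552), with no filter on low values (adjusted p = 0.0566) and on leaving out replicate 1 or 2 of si-Control or replicate 2 of si-NRDE2-2 (adjusted p up to 0.127). The remaining 7 were not called. STX5, the Qa-SNARE shared by ER to Golgi and intra-Golgi fusion, was at -0.07, and BET1 (0.12), USE1 (0.14), YKT6 (0.07), BET1L (-0.01), SEC22C (-0.05) and GOSR1 (-0.13) lay close to 0.

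Among the regulators, SYTL1, SYTL2 and NAPA fell. Of 8 members, 7 were tested, 3 fell and 0 rose, and the median was -0.12; over all tested genes 23.0% fell and 20.9% rose. SYTL1, a synaptotagmin-like protein that links RAB27 on secretory vesicles to the plasma membrane, measured 8.69, 8.08 and 8.62 FPKM in si-Control and 4.46, 4.18 and 3.799 FPKM in si-NRDE2-2. The highest si-NRDE2-2 value was well under the lowest si-Control value (log2 fold change -1.01 ± 0.07, adjusted p = 1.02e-06). Its relative SYTL2 measured 3.40, 3.27 and 3.03 FPKM and 2.61, 2.497 and 2.45 FPKM (-0.35 ± 0.07, adjusted p = 0.00248). SYTL3 and SYTL4, which are not members, were named after their values were seen. SYTL3, low at 1.09 to 1.29 FPKM in si-Control and 0.463 to 0.706 FPKM in si-NRDE2-2, fell too (-0.91 ± 0.14, adjusted p = 3.32e-04). SYTL4, at 0.0077, was not called.

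NAPA encodes alpha-SNAP, the adaptor through which NSF takes SNARE bundles apart. It measured 32.2, 33.3 and 34.1 FPKM in si-Control and 28.8, 28.4 and 27.6 FPKM in si-NRDE2-2 (-0.23 ± 0.04, adjusted p = 0.00127). Its relatives NAPB (-0.12) and NAPG (-0.09) were not called, and neither overlapped between groups. Groups did not overlap for 5 of the 7 tested regulators, and the share over all tested genes was 53.5%. The Munc18 proteins STXBP2 (-0.10), at 43.8 to 52.7 FPKM, and STXBP3 (0.05), at 14.8 to 17.1 FPKM, were not called either. NSF itself was listed at 0 in all 6 libraries, as was its near copy NSFP1. Since NSF is used by every cell, and RPS18, a ribosomal protein gene, was also listed at 0 throughout, this 0 can be a failed estimate, and nothing is said about its level.

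**Figure D5:**
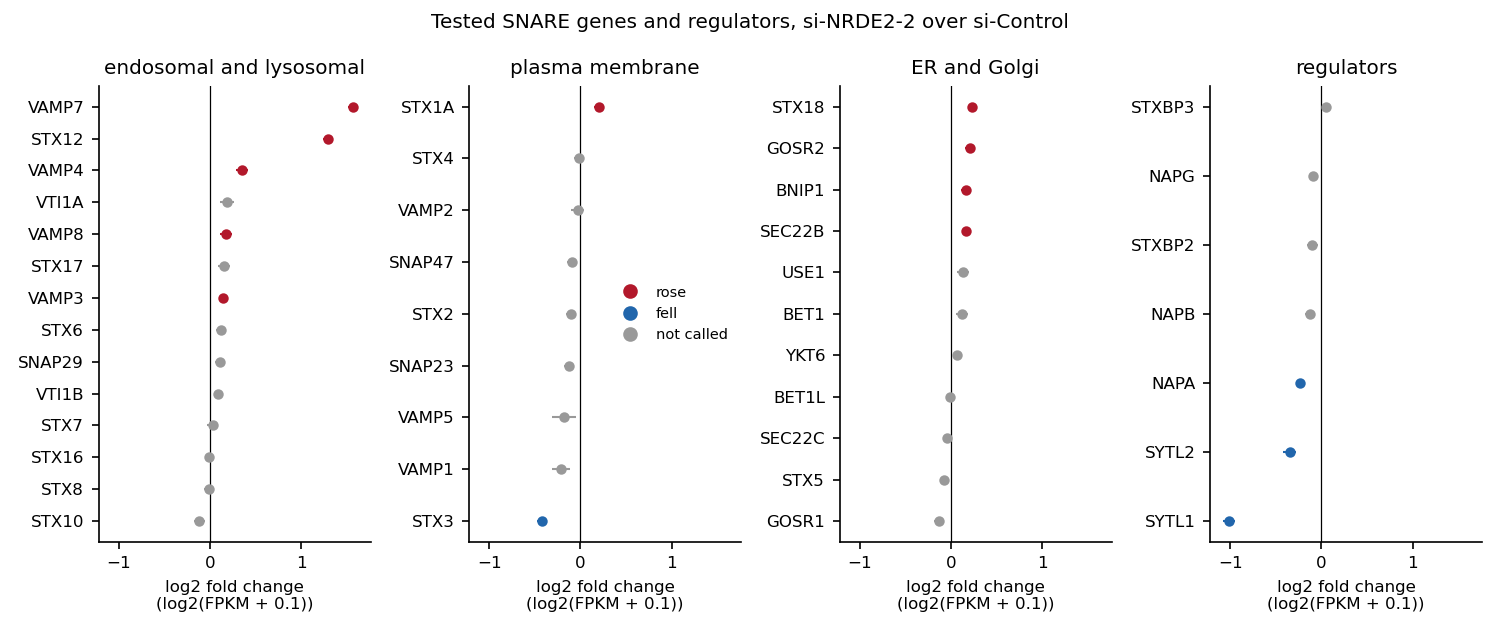
Log2 fold change (x axis, si-NRDE2-2 over si-Control on log2(FPKM + 0.1)) ± SE of the 41 tested members, by class; red rose, blue fell and grey was not called at an adjusted p under 0.05. The called points of the endosomal and the ER and Golgi classes are all to the right of 0, and those of the regulators, SYTL1, SYTL2 and NAPA, all to the left.

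Members of the known SNARE complexes are given side by side, and differences between members of a set were not tested. In the cell surface set with VAMP7, VAMP7 rose by 1.57 and STX4 and SNAP23 were at -0.02 and -0.12. STX4 and SNAP23 also form a cell surface set with VAMP2, VAMP3 and VAMP8. There VAMP3 and VAMP8 rose by 0.15 and 0.18, and VAMP2 was at -0.03. In the late endosome set of STX7, STX8, VTI1B and VAMP8, only VAMP8 was called. In the autophagosome set VAMP8 rose by 0.18 and STX17 and SNAP29 were at 0.16 and 0.11. In the set for lysosome fusion, VAMP7 rose by 1.57 while STX7, STX8 and VTI1B were at 0.03, -0.01 and 0.09. In the set for early and recycling endosomes, STX12 rose by 1.29 and VAMP3 by 0.15, while STX6 was at 0.12 and VTI1A at 0.19. In the set from endosomes to the trans-Golgi network, VAMP4 rose by 0.35 while STX6, STX16 and VTI1A were not called. Of the set from Golgi to ER, STX18, BNIP1 and SEC22B rose by 0.16 to 0.24 and USE1, at 0.14, was not called. Of the set from ER to Golgi, GOSR2 and SEC22B rose, and STX5 (-0.07) and BET1 (0.12) were not called. In the intra-Golgi set of STX5, GOSR1, BET1L and YKT6, 0 genes were called. By helix type, 5 of 9 R-SNAREs and 2 of 5 Qb-SNAREs rose, 3 of 10 tested Qa-SNAREs rose and 1 fell, and 0 of 6 Qc-SNAREs and 0 of 3 tested SNAPs were called. Over all tested genes 20.9% rose and 23.0% fell, so counts this small are given as a description of each type. SEC22C, listed with the ER and Golgi SNAREs, was given no helix type and is not in these counts.

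Summed over each class, transcripts of endosomal and lysosomal SNAREs went from 445, 448 and 494 FPKM in si-Control to 514, 512 and 517 FPKM in si-NRDE2-2. Without VAMP8 the sums were 264, 261 and 276 FPKM and 292, 294 and 298 FPKM, and these still hold the called VAMP7, STX12, VAMP4 and VAMP3. Of the 14 genes of this class 9 were not called, so the sums do not describe each gene. ER and Golgi SNAREs summed to 231 to 241 FPKM and 246 to 247 FPKM, and plasma membrane SNAREs to 143 to 147 FPKM and 136 to 145 FPKM. The regulators, without a usable value for NSF, summed to 125 to 131 FPKM in si-Control and 110 to 118 FPKM in si-NRDE2-2. The groups overlapped only in the plasma membrane sum. Over all 44 members the sums were 945 to 1012 FPKM and 1009 to 1024 FPKM, which overlap.

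Other genes of vesicle tethering, priming and fusion, a list of 99 of which 77 were tested, had 13 that rose and 22 that fell (45.5%, with 44% over all genes) and a median log2 fold change of -0.06. ESYT2, an extended synaptotagmin that tethers the ER to the plasma membrane, rose from 21.6, 21.4 and 20.7 FPKM to 50.5, 53.6 and 53.5 FPKM (1.30 ± 0.04, adjusted p = 9.06e-09). Its relative ESYT1 fell from 47.9, 51.7 and 48.8 FPKM to 35.8, 37.0 and 36.7 FPKM (-0.44 ± 0.04). The early endosome tether EEA1 rose by 0.59 ± 0.08, as did the TRAPP subunit TRAPPC2 by 0.54 ± 0.06, the Golgi tether subunits COG8 (0.33 ± 0.06) and COG3 (0.29 ± 0.05), and SNAPIN (0.24 ± 0.04), which binds SNAP proteins.

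HOPS and CORVET are tethers that work with SNAREs at endosomes and lysosomes, and 2 of their shared core subunits, VPS11 and VPS16, fell. VPS11 measured 20.2, 20.7 and 20.5 FPKM in si-Control and 11.9, 12.4 and 12.4 FPKM in si-NRDE2-2 (-0.74 ± 0.04, adjusted p = 3.80e-07). VPS16 fell by 0.37 ± 0.05. Of the 8 genes listed here for HOPS, CORVET and the related CHEVI, 3 fell and 0 rose. Over all tested genes, 23.0% fell and 20.9% rose. TGFBRAP1 (-0.32), named after its value was seen, is the other that fell. VPS33A and VPS33B were listed with the Sec1/Munc18 proteins and are not among these 8. VPS33B, also named after its value was seen, fell (-0.19 ± 0.06, adjusted p = 0.0174). The core subunits VPS18 (0.06) and VPS33A (0.09) and the HOPS subunit VPS41 (0.13) were not called. The groups of VPS33A and VPS41 did not overlap, with si-NRDE2-2 higher. VPS8 (-0.12) and VIPAS39 (-0.13) were not called either, and their groups did not overlap, with si-NRDE2-2 lower. All of these uncalled genes were also named after their values were seen. Groups did not overlap for 6 of the 8 listed genes, and the share over all tested genes was 53.5%. The priming factors UNC13B (-0.71 ± 0.05) and UNC13D (-0.57 ± 0.05) and the Golgi tether subunit COG1 (-0.44 ± 0.05) fell as well. ESYT2, ESYT1, EEA1, TRAPPC2, COG8, COG3, SNAPIN, VPS11, VPS16, UNC13B, UNC13D and COG1 kept their calls under every alternative in which they were tested. They had been picked by the smallest adjusted p in each direction, so their kept calls do not describe the other called genes of the list. TGFBRAP1, VPS33B and SYTL3 were not followed over the alternatives.

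Some values rest on shared sequence or overlapping genes. SEC22B, NSF, VTI1B, BET1, SNAP23, STX8 and NAPG have annotated pseudogenes named after them, and 17 of the 44 members overlap exons of another gene. STX12, SYTL1, STX3 and VAMP4 have neither. VAMP7 has neither by this search, but its copy on the Y chromosome, which can share its reads, was left out of the search. NAPA-AS1, an antisense row, was at 0.467 to 1.04 FPKM, and the sources used here do not say whether the counting used strand.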

How the data were processed

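Per the labels' protocols, the 6 libraries, 3 per group, were made from mirVana RNA with TruSeq Stranded mRNA kits, with groups and replicate numbers from the sample titles and columns matched through the descriptions. The authors deposited 1 table of FPKM values per gene. STAR 2.5.1b, DESeq2 1.10.1 and hg19 are named in the submitters' processing notes with no role. The program behind the FPKM column values, its annotation and its strand setting are not given in the sources used here. The values carry decimals and sum to 448972 to 486257 per library, so they are not counts. Another 4 columns were not used.

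After 157 small RNA rows were left out, the 11791 genes that reached 1 FPKM in 3 or more libraries were tested. The values, as log2(FPKM + 0.1), went into limma 3.58.1 (R 4.3.3; trended, robust prior variance, 2 groups, Benjamini-Hochberg adjustment, threshold 0.05). The fit was tested on simulated data with known changes. It called 56% of 50 simulated 1.25-fold changes and 95.9% of 49 simulated 1.5-fold changes. Far fewer genes were changed there than were called in the data, so these shares may not hold for the data. Means are ± SD and log2 fold changes ± SE. Depth was estimated from 983 genes whose values were whole multiples of 1 step, to a tolerance of 0.02 (56.4% of 2303 low genes had such values), with quartiles of 49500000 and 58200000 fragments for si-Control replicate 1. It was used only to describe precision. GENCODE 29 (GRCh38) gave 1 transcript per gene for length, GC content and 3′ UTR.

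The members, classes, other fusion genes and motifs were chosen with earlier results of these data known. Members called with an absolute log2 change of at least 0.5, the 3 most abundant members and VAMP7, VAMP8, SNAP23, STX4 and SYTL1 were to be given in every library; others so given were added after their values were seen. Of the other fusion genes, up to 6 per direction with the smallest adjusted p are named. Alternatives varied the pseudocount, filter, scaling, variance prior, small RNAs, replicate block, GC and length trends, and left out each library.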

Additional observations from a re-analysis of the deposited data

How the results depend on the processing

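Over 17 alternatives, 9 of the 14 called members kept their call in each one they were tested in (VAMP7, STX12, VAMP4, STX18, STX1A, STX3, NAPA, SYTL1 and SYTL2), and 0 of the 14 changed sign. Of the 27 uncalled members, 13 stayed uncalled throughout. The number of members that rose was 16 with GC and length trends removed, and 6 to 12 when single libraries were left out, 6 of them without si-NRDE2-2 replicate 2; the number that fell was 7 and 4 to 6. The cause was not tested. For other fusion genes the leave-one-out ranges were 9 to 16 that rose and 15 to 22 that fell, and for all genes 1921 to 2679 and 2006 to 2816. The NRDE2 log2 fold change ran from -3.77 to -3.66 when single libraries were left out; with a mean of at least 5 FPKM required, NRDE2, VAMP1, VAMP5, VTI1A, SYTL2 and TRAPPC2 were not tested.

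Uncalled members near 0 changed sign. With GC and length trends removed, STX16 was at 0.0084, STX4 at 0.024, BET1L at 0.023 and STXBP3 at -0.0045. When single libraries were left out, STX7 ranged from -0.021 to 0.078, STX8 from -0.049 to 0.042, STX16 from -0.038 to 0.039, VAMP2 from -0.11 to 0.046, STX4 from -0.066 to 0.013 and BET1L from -0.026 to 0.016.

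The sample titles give libraries of the 2 groups the same replicate numbers and do not say whether they were paired. Deviations from the group means correlated at -0.12, 0.10 and -0.12 across genes for same-numbered libraries. For differently numbered libraries the correlations ran from -0.11 to 0.17. With 3 libraries per group these values cannot show whether libraries were paired. With the replicate number as a block, 8 members rose and 4 fell (10 and 4 without it), 10 and 19 other fusion genes, and 2251 and 2429 of all genes, and the NRDE2 log2 fold change was -3.70. Depth limits the lowest members: SNAP25 and STX11 had about 14.3 and 25.4 fragments in the shallowest library.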
